A study of Mus musculus with 4 samples.

Results

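Haemoglobin, haem and red cell membrane genes were read on every array of CD8αβ+ IELs, T cells taken by sorting out of the small intestinal epithelium, and CD8αβ+ SPLs, the same kind of T cell from the spleen. The genes are Hba-a1, Hbb-b1, Alas2, Slc4a1, Epb4.2, Car1, Car2, Gata1 and Klf1, which are 9 of the 27376 gene names on the array. They were chosen by name with their levels on these 4 arrays already known, so their levels and differences are given as a description, with no test. All non-control probes that carry these names were taken, which gave 13 of 41174 probes on 22 spots. Of these, 7 genes had 1 probe each, Hbb-b1 had 4 and Epb4.2 had 2. All 9 genes and 12 of the 13 probes passed the filter, which keeps a probe that clears the scanner software's background mark on both arrays of either group. The 2 genes Alas2 and Epb4.2 passed only through the SPL arrays, so that a difference between the groups was favoured by the filter itself.

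Both groups came from male wild-type mice of 8 to 12 weeks, with no treatment, and had 2 samples each. According to the study's text, cells were gated on CD45, CD3, CD8α, CD8β and TCRβ, each sample was sorted from a pool of mice, and red cells were lysed in the spleen suspensions before sorting. Total RNA of 1 sample was labelled with Cy3 and put on 1 Agilent 1-colour whole mouse genome array, whereas the methods name another chip type. IEL replicate 1 and SPL replicate 2 shared slide 1, and IEL replicate 2 and SPL replicate 1 shared slide 2, with the same split in scan time.

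Red cells carry oxygen on haemoglobin, a tetramer of α-globin and β-globin chains that each hold a haem group. In late erythroblasts and reticulocytes these chains make up most of the protein made, and the messages stay in the cell after the nucleus is lost. GATA-1 and KLF1 (EKLF) are the transcription factors that switch on globin, haem and membrane genes, through GATA and CACCC sequences respectively. In mice the spleen is itself a site of red cell formation and of red cell clearance.

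A level below is the log2 of the background-subtracted intensity minus the log2 of that array's 75th percentile, so that 0 stands for a spot as bright as the 75th percentile. The CD8 T cell part of the labels was borne out, with each of 10 CD8 T cell markers well above background on all 4 arrays. Their summed intensity was 771 and 842 times the 75th percentile in IEL replicates 1 and 2. In SPL replicates 1 and 2 it was 864 and 846 times. These markers are common to both groups, so they do not tell IELs from SPLs. The arrays themselves did not fall into the labelled groups. Across 27912 probes, as a description, IEL replicate 2 and SPL replicate 1 had a Pearson correlation of 0.992, the SPL arrays one of 0.986 and the IEL arrays one of 0.946. IEL replicate 1 stood apart, so results below are given by array.

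The probes that carry the globin result were 60 bases long and are shown since everything said of globins rests on what they bind. The capitals mark the 29 bases that 2 of the Hbb-b1 probes share, so those are overlapping readings of 1 stretch of message. Positions are those of the array's annotation on mm9.
Hba-a1 (A_52_P278538, chr11:32183775-32183956, plus strand): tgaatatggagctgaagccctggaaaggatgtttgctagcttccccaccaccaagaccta
Hbb-b1 (A_51_P374476, chr7:110962000-110962059, minus strand): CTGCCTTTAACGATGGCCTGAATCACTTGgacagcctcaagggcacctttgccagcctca
Hbb-b1 (A_52_P260346, chr7:110962031-110962090, minus strand): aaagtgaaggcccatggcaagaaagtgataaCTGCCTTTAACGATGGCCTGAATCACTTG
Hbb-b1 (A_51_P374468, chr7:110962317-110962376, minus strand): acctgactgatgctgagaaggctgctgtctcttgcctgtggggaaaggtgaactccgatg
The annotated span of the Hba-a1 probe is longer than the probe. The fourth Hbb-b1 probe lies at chr7:110961112-110961171. Hba-a1 has a near-identical copy, Hba-a2, whose own probe has 3 mismatches to the Hba-a1 probe over the 30 bases where they overlap. The accession of the Hbb-b1 probes belongs to the gene that RefSeq now calls Hbb-bt, which also has close copies. Signal of a copy on these probes cannot be told apart from signal of the named gene.

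Haemoglobin message was bright on 3 of the 4 arrays and dim on IEL replicate 1. Hba-a1, an adult α-globin chain gene, had levels of -1.51 and 4.44 in IEL replicates 1 and 2 and of 4.93 and 5.20 in SPL replicates 1 and 2. The brightest Hbb-b1 probe, for an adult β-globin chain, had -0.57, 5.69, 6.05 and 6.26 in the same order. For both chains IEL replicate 2 lay just under the SPL arrays and far above its own replicate, so the IEL arrays were below the SPL arrays without overlap but were themselves apart by most of the range. Hba-a1 in IEL replicate 1 was at 1.62% of its intensity in IEL replicate 2, a log2 difference of -5.95 or 61.7-fold. The 4 Hbb-b1 probes gave log2 differences of -5.34 to -6.80 between the IEL arrays, or 40.5-fold to 112-fold, at 0.895% to 2.47% of IEL replicate 2. Between the SPL arrays the differences were -0.28 for Hba-a1 and -0.20 to -0.29 for the Hbb-b1 probes.

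Even in IEL replicate 1 all 5 globin probes were well above background, at 67.6 to 210 units of processed intensity for Hbb-b1 and 110 units for Hba-a1. In SPL replicate 2 the same probes reached 16149 to 46321 units and 22271 units. Globin message was thus measurable on every array. The mean level of Hba-a1 was 1.46 ± 4.2 (SD, n = 2) in CD8αβ+ IELs and 5.06 ± 0.19 (SD, n = 2) in CD8αβ+ SPLs, a log2 difference of -3.60. Without IEL replicate 1 this difference was -0.63, and without IEL replicate 2 it was -6.57. Hbb-b1 gave 2.56 ± 4.43 (SD, n = 2) and 6.15 ± 0.15 (SD, n = 2), a difference of -3.60, with -0.47 and -6.73 when the same arrays were left out. The group difference of the globins is thus set by which IEL array is kept.

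Within slide 2, which holds IEL replicate 2, Hba-a1 was 1.40-fold higher in CD8αβ+ SPLs and the Hbb-b1 probes were 1.25-fold to 1.36-fold higher. Within slide 1, which holds IEL replicate 1, the log2 difference was -6.71 for Hba-a1 and -5.96 to -7.32 for Hbb-b1. IEL replicate 2 held 64.7% of the SPL mean of Hba-a1 and a median of 72.2% over the Hbb-b1 probes.

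**Figure D1:**
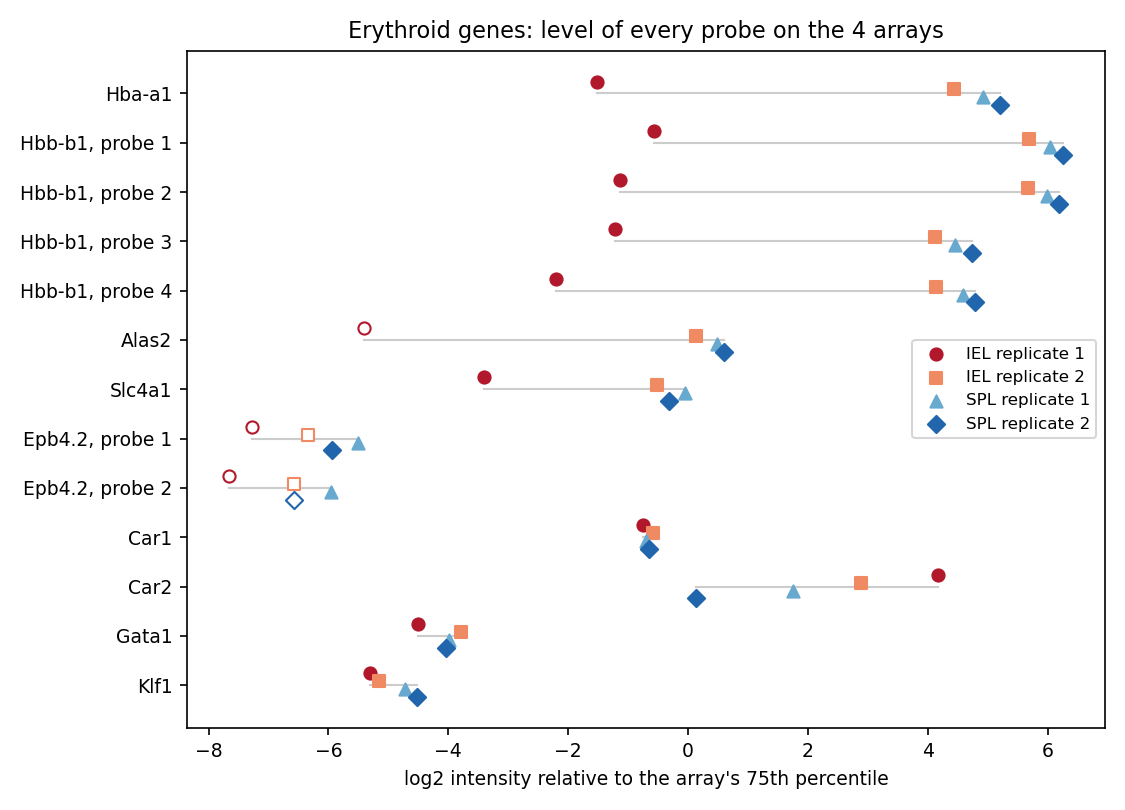
Level of each of the 13 probes of the 9 genes (vertical axis) as the log2 intensity relative to the array's 75th percentile (horizontal axis), with 1 symbol per array, filled where the probe was well above background. IEL replicate 1 lies far to the left of the other 3 arrays for Hba-a1, Hbb-b1, Alas2 and Slc4a1, the 4 arrays coincide for Car1, and the order turns around for Car2.

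Alas2 followed the globins. It encodes the erythroid form of the enzyme that starts haem synthesis, and its probe lies at chrX:147004993-147005052 on mm9. Its level was -5.41 in IEL replicate 1, where it was not well above background, against 0.13 in IEL replicate 2 and 0.48 and 0.60 in SPL replicates 1 and 2. IEL replicate 2 was at least 45.7-fold above IEL replicate 1, a limit set against the dimmest probe of that array still well above background, or Alas2's own signal where that was higher. The SPL arrays differed by -0.11. The difference between the IEL arrays, -5.54 on the processed intensity, was -1.41 under normexp background correction and -2.65 when that correction was fitted without spots far below their local background. IEL replicate 2 was at 75.3% of the SPL mean, and the 3 arrays apart from IEL replicate 1 spanned 0.47 on the log2 scale. The other haem enzymes of the pathway, which every cell uses, did not share this difference. None of the 8 measured, Alas1 and Fech among them, was at least 2-fold lower in IEL replicate 1, where 11.7% of all probes were. Their summed intensity was 25.7 times the 75th percentile in IEL replicate 1 against 28.7 in IEL replicate 2.

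Slc4a1, which encodes band 3, the anion exchanger of the red cell membrane, moved the same way by less. Its level was -3.41 in IEL replicate 1, -0.52 in IEL replicate 2, -0.04 in SPL replicate 1 and -0.32 in SPL replicate 2. IEL replicate 1 lay apart from the other 3 arrays. IEL replicate 1 was at 13.5% of IEL replicate 2, or 7.41-fold lower, while the SPL arrays differed by 0.27. The IEL replicate difference was -0.73 under normexp background correction and -1.64 under its other fit, both smaller than the -2.89 given by the processed intensity. The probe lies at chr11:102210256-102210315 on mm9 and was well above background on all 4 arrays.

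Epb4.2, which encodes a protein that ties band 3 to the membrane skeleton, was near the floor of detection. Its brighter probe had levels of -7.28 and -6.34 in IEL replicates 1 and 2, neither well above background, and of -5.50 and -5.94 in SPL replicates 1 and 2. The dimmer probe, which was not tested, had -7.66, -6.58, -5.96 and -6.58 and was well above background in SPL replicate 1 alone. IEL replicate 1 was again the lowest array on either probe, but no fold can be given, since both IEL readings are under the floors of their arrays and the SPL mean lies below the mean of those floors.

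The 2 carbonic anhydrases, enzymes that turn carbon dioxide into bicarbonate in red cells and many other cells, did not follow the globins. Car1 (chr3:14767486-14767545, minus strand, mm9) had levels of -0.75 and -0.58 in IEL replicates 1 and 2 and of -0.70 and -0.64 in SPL replicates 1 and 2. The 4 arrays lay within 0.17 of each other and the groups overlapped, with 1.00-fold between the group means. Car2 (chr3:14900206-14900265, plus strand, mm9) ran the other way, from 4.17 in IEL replicate 1 through 2.88 in IEL replicate 2 and 1.76 in SPL replicate 1 to 0.13 in SPL replicate 2. Both IEL arrays were above both SPL arrays. The mean was 3.53 ± 0.91 (SD, n = 2) in CD8αβ+ IELs and 0.95 ± 1.15 (SD, n = 2) in CD8αβ+ SPLs, a log2 difference of 2.58 or 5.98-fold.

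Car2 also differed within either group, by 1.29 between the IEL arrays and by 1.63 between the SPL arrays, and it is the member whose SPL arrays differed most. Its IEL minus SPL difference was 4.04 on slide 1 and 1.12 on slide 2, and between 1.77 and 3.39 with each array left out in turn. The direction of Car2 was thus kept by every array left out, while its size was not. Of the 9 other carbonic anhydrase genes measured, 8 had values on both IEL arrays. Of these 8, 2 were at least 2-fold lower in IEL replicate 1 than in IEL replicate 2, Car12 with -2.15 and Car11 with -1.23, and none was at least 2-fold higher. Of all probes, 11.7% were lower and 9.0% higher by that much. Car14, with 1.51 between the SPL arrays, was the only one of the 9 at least 2-fold apart there.

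The 2 transcription factors were dim on every array. Gata1 is read by 1 probe on 10 spots (chrX:7536849-7536908, minus strand, mm9) and had levels of -4.50 and -3.78 in IEL replicates 1 and 2 and of -3.99 and -4.03 in SPL replicates 1 and 2. The groups overlapped, since the IEL arrays were the lowest and the highest of the 4. On IEL replicate 1, 8 of the 10 spots were well above background, with a coefficient of variation of 31.6%, against all 10 spots and 6.42% to 10.6% on the other arrays. Klf1 (chr8:87428881-87428940, plus strand, mm9) had -5.31 and -5.15 in IEL replicates 1 and 2 and -4.72 and -4.52 in SPL replicates 1 and 2. Both IEL arrays were below both SPL arrays for Klf1, by 1.53-fold between the means, at 7.85 to 26.4 units where the dimmest probes called well above background had 6.95 to 7.92 units. Under the normexp corrections the sign of the Klf1 and Gata1 differences was not stable, with Klf1 at -1.01 and 0.18 and Gata1 at -0.86 and 0.27 between the groups. Between the IEL arrays Gata1 differed by -0.72 and Klf1 by -0.16 on the processed intensity, which turned to 1.07 and 1.32 under normexp and to 0.098 and 0.326 under its other fit. Neither sign nor size of a replicate difference is thus settled for these dim genes.

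Against all probes, the replicate difference of CD8αβ+ IELs was at the extreme for the globins. Of the 9 genes, 4 (Hba-a1, Hbb-b1, Alas2 and Slc4a1) were at least 2-fold lower in IEL replicate 1 than in IEL replicate 2, where 11.7% of the 27912 probes were. Among these, 3 were at least 8-fold lower, against 1.64% of all probes. Car2 was the 1 gene at least 2-fold higher in IEL replicate 1, where 9.0% of all probes were. Among the 25493 tested probes well above background on both IEL arrays, counted from the lowest difference upward, the Hbb-b1 probes ranked between 7 and 29, Hba-a1 16 and Slc4a1 188. Alas2, which IEL replicate 1 did not read above background, has no rank, and it counts among the 3 by its limit of 45.7-fold on the processed intensity. The counts describe genes picked for these differences and nothing further is read from them.

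Between the SPL arrays no gene was at least 2-fold lower in replicate 1, where 1.25% of all probes were, and Car2 alone was at least 2-fold higher, where 2.68% were. For the 7 genes well above background on all 4 arrays, the median difference was -0.72 within IEL and -0.05 within SPL, beside 0.01 and -0.02 over all tested probes. That IEL median is the value of the dim Gata1, which turned to 1.07 under normexp, so it does not describe the 7 genes as a set. Over all 9 genes the IEL median falls on Epb4.2, which neither IEL array read above background, so that it is no measured difference. Single probes had a standard deviation of 1.01 between the IEL arrays and of 0.50 between the SPL arrays. The IEL replicates thus differed more than the SPL replicates over the whole array and not only in these genes.

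**Figure D2:**
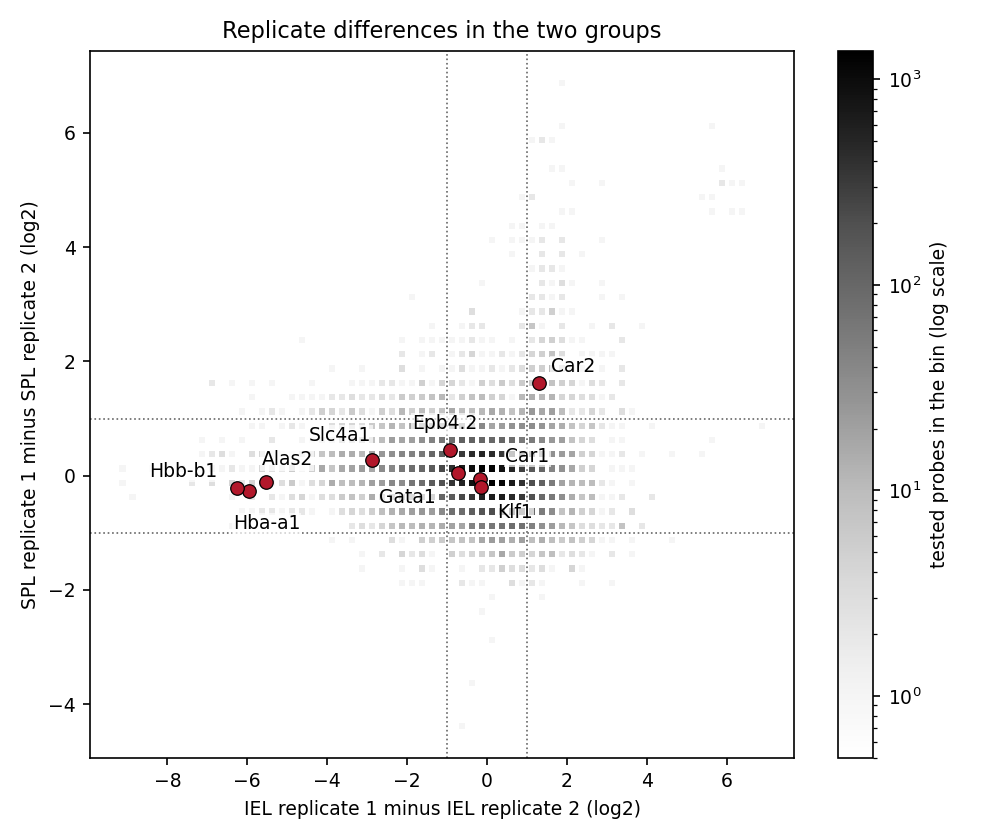
Difference between the IEL arrays (horizontal axis, log2) against the difference between the SPL arrays (vertical axis, log2) for 27912 probes binned in grey and for the brightest tested probe of the 9 genes in red. Dotted lines mark 2-fold. Hba-a1, Hbb-b1, Alas2 and Slc4a1 lie to the left at -2.89 to -6.26 with SPL differences of at most 0.28 in size, Car2 lies at 1.29 and 1.63, and the rest lie near the centre.

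Between the groups, 6 of the 9 genes had both IEL arrays below both SPL arrays, where 24.6% of all probes did, and Car2 had both above, where 24.4% did. The 6 were Hba-a1, Hbb-b1, Alas2, Slc4a1, Epb4.2 and Klf1. Of these, Alas2 and Epb4.2 passed the filter only through the SPL arrays, which favoured this order. Neither IEL array read Epb4.2 above background. The genes were chosen with these levels known, so nothing further is read from the count. In limma with Benjamini-Hochberg adjustment over 27937 probes, 0.0% passed the threshold of 0.05 and none of the 9 genes was among them. At an unadjusted p under 0.05 limma gave 1295 higher and 308 lower probes, and the methods' t-test gave 470 and 349, with 0 after adjustment. Without IEL replicate 2, limma called 19.5% of 27932 probes, and nothing is read from the calls of the 9 genes, which were chosen on these values. The lone IEL array is then assumed to vary like the SPL arrays. With 2 arrays a group, the smallest two-sided p of an exact permutation test is 0.33.

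Red cell genes outside the choice were low in IEL replicate 1 in part. Among 56 tested genes of 6 lists (globins, haem enzymes, membrane and skeleton, transcription factors, iron handling, late red cell enzymes and receptors), 19 were at least 2-fold lower in IEL replicate 1 and 1 was higher, against 11.7% and 9.0% of all probes. With readings that were not well above background raised to the floor, the lowest reading of that array that was, 16 of the 56 were lower, against 9.15% of all probes. Between the SPL arrays 0 of these 56 were at least 2-fold lower in replicate 1 and 1 was higher, against 1.25% and 2.68% of all probes. The median difference within IEL was -0.48, or -0.36 with the floor. Both IEL arrays were below both SPL arrays for 26 of the 56 and above for 6, against 24.6% and 24.4% of all probes. All 56 were well above background on either SPL array, but 42 on IEL replicate 1 and 53 on IEL replicate 2. The filter itself thus favoured lower IEL readings among them, and nothing further is read from these counts. The lists were written with results of these arrays known.

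Among globin genes, the α-globin copy Hba-a2 had levels of -1.64, 4.31, 4.74 and 4.94 in IEL replicates 1 and 2 and SPL replicates 1 and 2, close to Hba-a1 throughout. Ahsp, the chaperone that holds free α-globin, was not well above background in IEL replicate 1 and at least 34.9-fold higher in IEL replicate 2, with -0.26 there and 0.12 and -0.13 on the SPL arrays. This limit and the other limits of list genes below hold on the processed intensity alone and were not computed under the normexp corrections. The embryonic β-like gene Hbb-bh1 stayed between -5.88 and -5.23 on all 4 arrays. Hba-a2 and Ahsp were thus low in IEL replicate 1 together with Hba-a1 and Hbb-b1, and Hbb-bh1 was near the floor on every array. Of the 4 tested genes of the globin list beside the members, 2 were at least 2-fold lower in IEL replicate 1, against 11.7% of all probes.

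In the membrane list, 4 of 13 genes beside the members were at least 2-fold lower in IEL replicate 1, and 2 of 13 with the floor. The shares of all probes were 11.7%, and 9.15% with the floor. Rhd, of the Rh antigen complex, was at least 7.96-fold higher in IEL replicate 2 than in IEL replicate 1, with levels of -2.39 there and -1.88 and -2.27 on the SPL arrays. Kel, the Kell antigen, was at least 3.38-fold higher in IEL replicate 2 and not well above background in IEL replicate 1. The summed intensity of the list ran the other way, at 17.6 times the 75th percentile in IEL replicate 1 and 7.97 in IEL replicate 2. A sum follows its brightest genes, which need not be particular to red cells.

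Among the transcription factors beside Gata1 and Klf1, 4 of 8 were at least 2-fold lower in IEL replicate 1, against 11.7% of all probes. Lmo2, which bridges GATA-1 and TAL1, was at least 2.74-fold higher in IEL replicate 2 than in IEL replicate 1, Nfe2, a factor of the globin locus control region, at least 7.40-fold higher, and Cbfa2t3, a corepressor of the same complex, differed by -2.11. In the iron list 3 of 11 were lower, and 2 with the floor, against 11.7% and 9.15% of all probes. Slc40a1, the iron exporter ferroportin of macrophages and gut cells, was at least 65.1-fold higher in IEL replicate 2, but it also differed by 1.61 between the SPL arrays, which the globins did not. Of the late red cell genes, 6 of 12 were at least 2-fold lower, against 11.7% of all probes, with -2.24 for Tspan33 as the lowest. Of 11 erythroid progenitor and proliferation genes, 0 were at least 2-fold apart between the IEL arrays or between the SPL arrays. Of all probes, 11.7% were lower and 9.0% higher in IEL replicate 1, and 1.25% and 2.68% in SPL replicate 1.

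**Figure D3:**
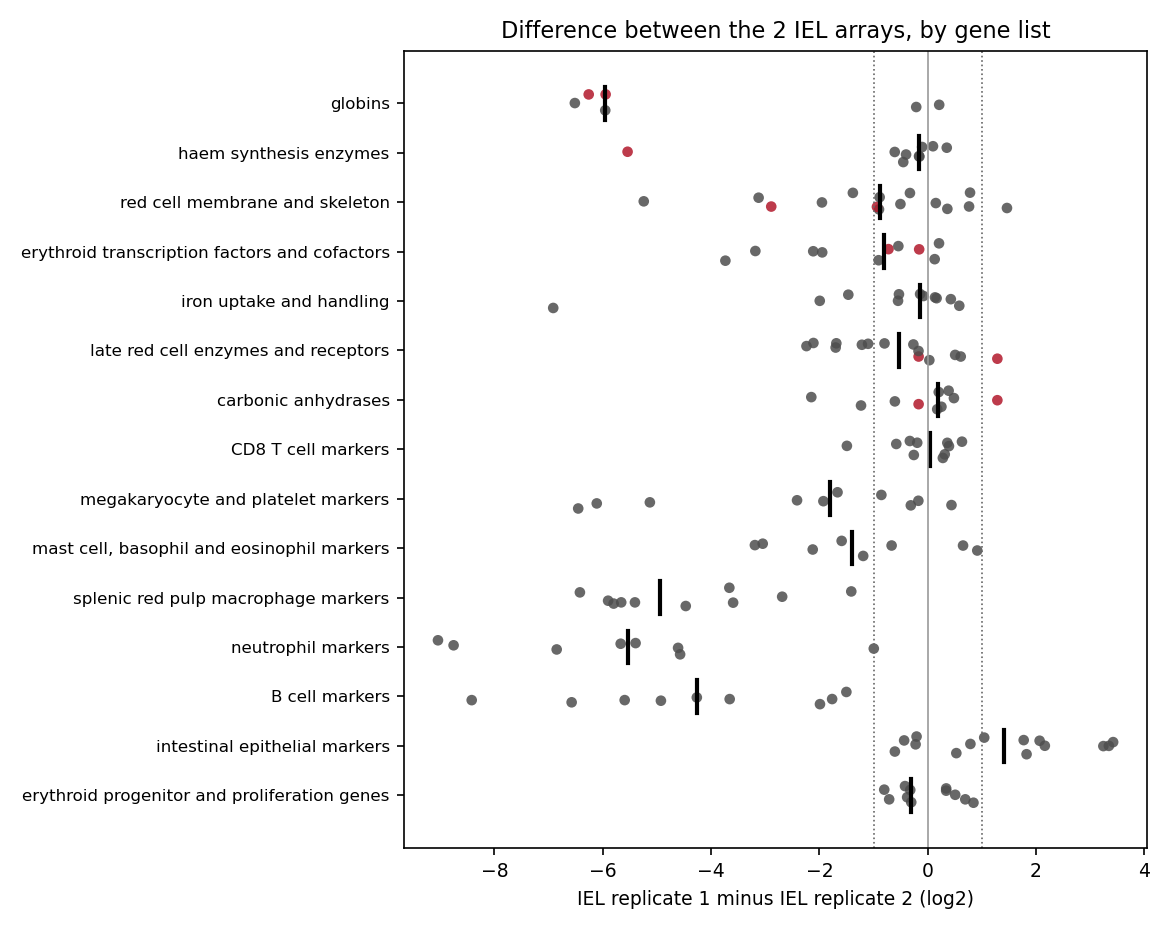
Difference between the IEL arrays (horizontal axis, log2) for each tested gene of 15 lists (rows), with the 9 erythroid genes in red, other genes in grey and a bar at each list's median. Dotted lines mark 2-fold. Adult globins, neutrophil, B cell and red pulp macrophage genes lie far to the left, CD8 T cell markers lie around 0 and intestinal epithelial markers lie to the right.

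Markers of other spleen cells were low together with the globins in IEL replicate 1. Over all probes, 11.7% were at least 2-fold lower there than in IEL replicate 2. Of 8 neutrophil genes, 7 were at least 2-fold lower in IEL replicate 1, and their summed intensity was 0.246 times the 75th percentile there, 36.5 in IEL replicate 2, and 45.3 and 51.0 in SPL replicates 1 and 2. All 9 B cell genes were at least 2-fold lower, with sums of 3.65, 22.1, 28.5 and 21.6 in the same order. For the globin list the sums were 1.55, 94.0, 124.6 and 145. In these lists IEL replicate 1 was the low array and IEL replicate 2 was close to the SPL arrays, as for the 4 genes from Hba-a1 to Slc4a1.

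All 10 tested red pulp macrophage genes, from the cells that clear old red cells, were at least 2-fold lower in IEL replicate 1, with sums of 0.560, 11.6, 15.0 and 5.89. They differed from the globins between the SPL arrays, where 9 of the 10 were at least 2-fold higher in SPL replicate 1 and the median difference was 1.29, beside -0.21 for the globin list. Of 10 platelet genes 6 were at least 2-fold lower in IEL replicate 1, or 5 with the floor, with at least 27.4-fold for Pf4 and at least 17.2-fold for Ppbp between the IEL arrays. Intestinal epithelial markers ran opposite, with 8 of 14 at least 2-fold higher in IEL replicate 1 and sums of 26.1, 5.35, 2.22 and 0.664, the order of arrays seen for Car2. Over all probes, 11.7% were at least 2-fold lower in IEL replicate 1, or 9.15% with the floor, and 9.0% were higher. In SPL replicate 1, 2.68% of all probes were at least 2-fold higher than in SPL replicate 2. In IEL replicate 1, 2 of 8 neutrophil, 5 of 9 B cell, 6 of 10 macrophage and 6 of 10 platelet genes were well above background, and of the defining markers S100a8, Ltf, Ms4a1 and Pf4 were not. The paper reports a high purity of the sorted cells by flow cytometry. It also reports that a set of Paneth and epithelial genes was not higher in the IELs. How far the gate left out red cells, neutrophils, B cells and epithelial cells in these samples was not tested here. The part of these cells in the levels of the 9 genes was not tested, and in RNA of bulk samples more cells of a type and more RNA per cell cannot be told apart.

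**Figure D4:**
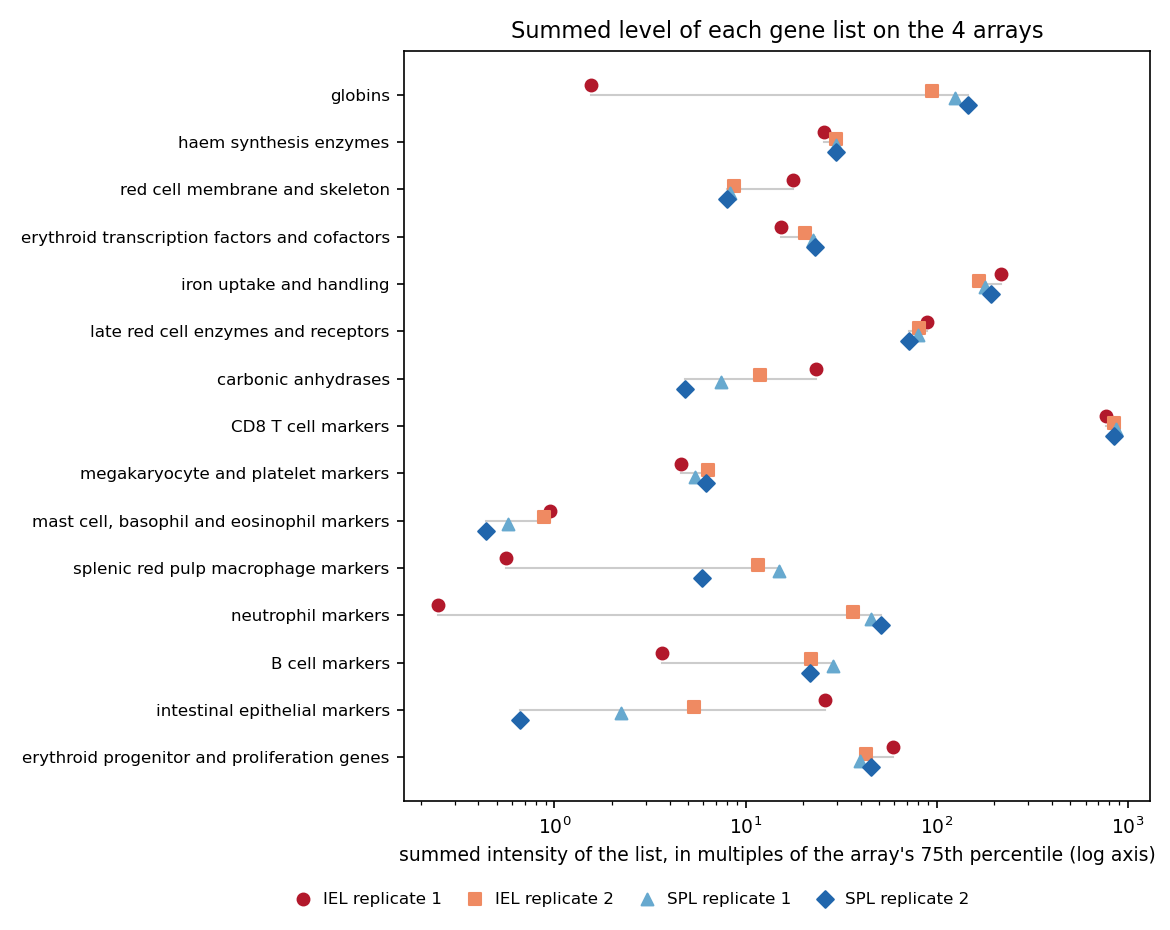
Summed intensity of each of 15 gene lists on the 4 arrays, in multiples of the array's 75th percentile (horizontal axis, log scale), with 1 symbol per array. Globins, neutrophil and B cell genes had 1.55, 0.246 and 3.65 in IEL replicate 1 and 94.0, 36.5 and 22.1 in IEL replicate 2, while CD8 T cell markers stayed between 771 and 864.

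The genes most like each member were found by the root mean square distance between profiles centred on their mean over the 4 arrays, among 25082 other probes well above background on all of them. Nearest to Hba-a1 was Hba-a2, at 0.05, followed by St6gal1, Trnp1, Klra16 and Myb at 0.10 to 0.17. Nearest to Hbb-b1 were Hba-a2, at 0.12, Prss12, Klra16, Trnp1 and St6gal1. Nearest to Slc4a1 was Capg, at 0.04, and nearest to Car2 were Cd160, at 0.04, B4galt4 and Cd38. The likeness is over 4 arrays alone, in which 1 array stands apart. Of 27912 probes, 457 were at least 8-fold lower in IEL replicate 1 than in IEL replicate 2, though few by as much as the globins.

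Promoter sequence was looked at for what the globins and Alas2 share that the choice of genes did not use. RefSeq gave a window for 6 of the 9 genes, and the 250 bases before the start are shown for the 3 that were lowest together in IEL replicate 1, with capitals for each motif match. Motifs were searched on both strands. A GATA motif was the word AGATAA, the close form AGATAG ending in another base, the form TGATAA starting with another base, or with both changes the form TGATAG. The CACCC and CCAAT boxes were searched by their own letters. An E-box was the word CAGCTG, which reads alike on either strand, or the variant CAGATG. For the TATA box the search used TATAAA, its common form, and the variant ATAAAA.
Hba-a1 (GRCm38.p6, chr11:32283422-32283671, plus strand): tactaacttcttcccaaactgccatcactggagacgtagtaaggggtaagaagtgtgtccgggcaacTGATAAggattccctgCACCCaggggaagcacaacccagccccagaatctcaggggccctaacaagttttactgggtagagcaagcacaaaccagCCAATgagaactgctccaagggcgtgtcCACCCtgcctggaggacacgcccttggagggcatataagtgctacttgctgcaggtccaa
Hbb-b1, in RefSeq Hbb-bt (GRCm38.p6, chr7:103813924-103814173, minus strand): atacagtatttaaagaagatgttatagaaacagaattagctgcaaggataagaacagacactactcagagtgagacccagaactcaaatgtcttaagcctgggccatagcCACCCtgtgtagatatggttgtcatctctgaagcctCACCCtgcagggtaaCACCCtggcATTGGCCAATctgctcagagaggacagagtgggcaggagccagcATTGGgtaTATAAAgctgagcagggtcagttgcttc
Alas2 (GRCm38.p6, chrX:150547167-150547416, plus strand): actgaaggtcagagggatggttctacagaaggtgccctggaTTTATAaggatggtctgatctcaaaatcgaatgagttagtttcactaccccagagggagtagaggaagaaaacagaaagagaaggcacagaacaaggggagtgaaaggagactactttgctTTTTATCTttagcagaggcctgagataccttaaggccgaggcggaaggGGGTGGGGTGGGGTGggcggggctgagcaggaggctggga
Each of the 3 held CACCC, with 2 matches in Hba-a1, 3 in Hbb-b1 and 3 in Alas2, and 52.0% of all 32851 windows held at least 1. The 3 matches of Alas2 are GGGTG on the shown strand, at -40, -35 and -30 from the start. A GATA match lay at -183 in Hba-a1 and at -86 in Alas2, where it overlaps an ATAAAA match and both lie on the strand opposite to the gene, and none of the 4 GATA words was in the Hbb-b1 window. GATA matches were in 26.5% of all windows and GATA together with CACCC in 11.8%. Hbb-b1 had TATAAA at -28 and CCAAT on either strand at -80, -75 and -36, and Hba-a1 had CCAAT at -88. TATA matches were in 22.8% and CCAAT in 33.9% of windows.

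The other 3 windows held the same kinds of motif. Gata1 had CACCC at -74 and -52, Klf1 had CACCC at -114, GATA at -80, CCAAT at -64 and an E-box at -59, and Epb4.2 (Epb42 in RefSeq) had GATA at -226 with E-boxes at -212, -182 and -93. E-boxes were in 25.5% of windows. Whether the motifs separate the genes low in IEL replicate 1 from others cannot be told from these windows. The IEL replicate differences of Gata1 and Klf1 are unsettled, and neither IEL array read Epb4.2 above background. Slc4a1, Car1 and Car2 had no window. The Hba-a1 and Hba-a2 windows share a run of 297 of their 300 bases, so they count as 1 promoter. A match describes letters and not binding.

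**Figure D5:**
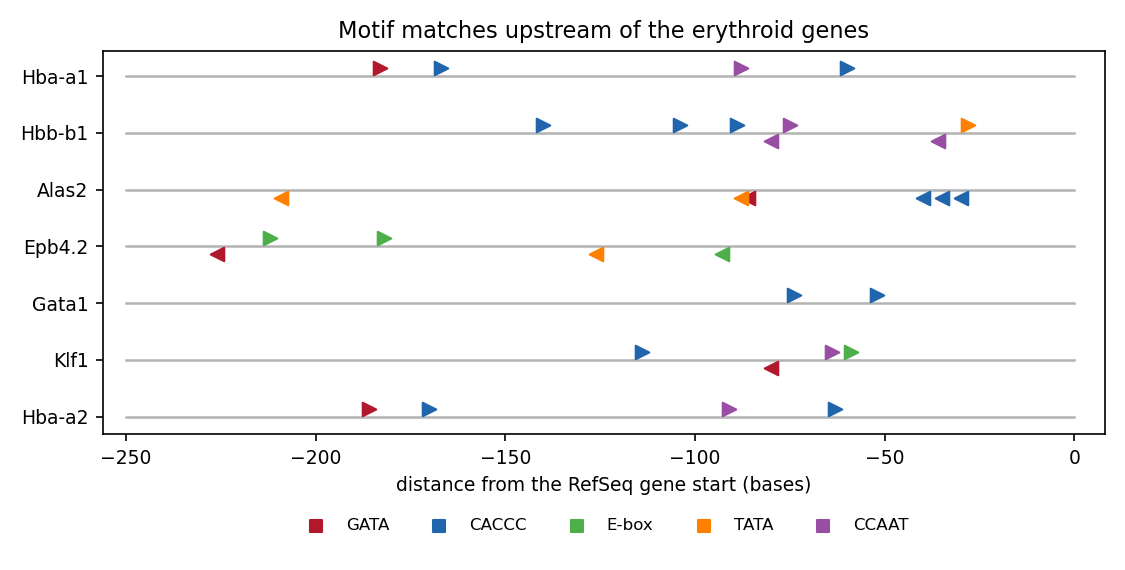
Position of each motif match (horizontal axis, bases from the RefSeq start of the gene) in the 250 bases upstream of 6 of the 9 genes and of Hba-a2. Colours mark the motif, and symbols above the line pointing right are matches on the gene's strand, symbols below pointing left on the other. CACCC was in each gene but Epb4.2, and GATA in Hba-a1, Alas2, Epb4.2, Klf1 and Hba-a2.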

How the data were processed

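RNA of 4 samples was measured on Agilent 1-colour whole mouse genome arrays. The deposited scanner files give intensity values from which the authors' scanner software (Feature Extraction 10.7.3.1 in the file headers, 10.7.1.1 in the submitters' processing notes) subtracted a background within each array, leaving arrays unnormalized against each other. A deposited table of log2 values, equalized across arrays, served as an alternative. Processed intensities were divided by the 75th percentile of their array over 43379 non-control spots, which was 312 to 435 units in IEL and 479 to 605 units in SPL, and put on the log2 scale. Marked spots were left out, and spots of a probe were averaged. No spot was saturated, with 0 on each array. Background limits detection, with 63.6% to 69.6% of probes well above it, and precision is limited by having 4 arrays.

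A gene with several probes is represented by its brightest tested probe. Probes well above background on both arrays of either group were tested with limma 3.58.1 in R 4.3.3, unblocked, two-sided and with Benjamini-Hochberg adjustment. The model was tested on simulated data. Called differences between single arrays are those of at least 2-fold. Summed intensities are over the representative probes of a list. All probes of the members are reported, and the named list genes are up to 3 per list with the largest differences, apart from haem genes that are only counted and from genes not reported here. The members, the 15 lists and the tests were chosen with earlier results of these data known. Alternatives were 2 other scalings, quantile normalization, 2 normexp corrections with an offset of 50, the authors' values, other filters, kept marked spots, a mean over a gene's probes, an intensity trend, the methods' t-test, a replicate or slide block, a stricter threshold of 0.01 and each array left out. Chosen after seeing the data were within-slide values under these alternatives, the median of 4 genes alone, and list counts with readings below background raised to the lowest reading of that array well above it, called the floor. Probe positions are on mm9, and promoter windows are from RefSeq on GRCm38.p6. Protein sequences were not used here, so that the planned protein identities were not computed.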

Additional observations from a re-analysis of the deposited data

How the results depend on the processing

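No probe passed limma's threshold with all arrays under the 2 other scalings, quantile normalization, both normexp corrections, the authors' values, no filter or a stricter one, kept marked spots, an intensity trend, the methods' t-test or the threshold of 0.01. With each array left out in turn the count ran from 0 to 5456, the latter without IEL replicate 2. A pairing of the arrays by replicate number was not shown. The deviations of same-numbered arrays had a correlation of -0.02 across probes. This value cannot settle it, since IEL replicate 1 stands apart and same-numbered arrays lay on different slides. The replicate block gave 0 calls. The slide as a block gave 0 as well.

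With all arrays, the medians over the 9 genes within IEL, between the groups and on slide 1 fall on Epb4.2, which neither IEL array read above background, and are not measured differences. The median IEL minus SPL difference was -1.09, from -1.56 to -0.41 with each array left out, and it turned to 0.076 when normexp was fitted without spots far below their local background. The median replicate difference within IEL, -0.94, went to 0.0499 under normexp, to -0.10 under its other fit and to -5.74 for the 4 genes from the globins to Slc4a1, or -5.73 with Alas2 at the floor. On slide 1 the median of the 9 genes was -1.33, with 0.00794 under normexp, 0.0209 under its other fit and -0.79 under the stricter filter. Epb4.2 turned to 0.29 between the groups under the latter normexp fit. The cause of these shifts was not tested. The difference of Hba-a1 between the IEL arrays stayed between -6.02 and -4.84, that of Hbb-b1 between -6.41 and -5.75 and that of Alas2 between -5.62 and -1.41 over the scalings, corrections and filters. That of Slc4a1 stayed between -2.97 and -0.73, and Car2 between the groups between 2.49 and 2.62. Under normexp the difference between the IEL arrays turned to 1.38 for Epb4.2, 1.07 for Gata1 and 1.32 for Klf1, and the group difference of Alas2 went from -3.18 to -0.85. Of the single-gene values under an alternative, apart from that turn of Epb4.2 between the groups, 277 moved by less than the replicate spread and 22 by more. For group differences that spread is the gene's own pooled SD, which was 2.77 to 3.13 for the globins and Alas2, so that large moves with an IEL array left out count as within it.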
